A study of Mus musculus with 12 samples.

Results

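Tumour tissue grown in the lungs of smoke-exposed RelA/p65 deficient mice was compared with the same tissue from smoke-exposed wild type mice. The comparison took the 3 arrays titled P65 KO Smoke against the 3 titled Wildtype Smoke, 6 of the 12 arrays of the series, and covered 19937 genes that had a probe set naming a single gene. All hosts were labelled female C57BL/6 mice, and the material of every array was labelled as cells of Lewis lung carcinoma taken from the lungs, that is a transplantable carcinoma line of C57BL/6 origin. The other 6 arrays came from hosts of both genotypes kept in air, 3 per group, and are used here only beside the smoke arrays. The title of the series names myeloid cells, but the labels of the samples give no promoter or Cre that drives the loss of RelA/p65, no length of exposure and no age. They also do not say whether the 3 arrays of a group came from separate mice, so the p-values below measure the spread between these arrays, which may be technical.

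RelA, also called p65, is the main activating subunit of the NF-kB family of transcription factors. In resting cells NF-kB dimers are held in the cytoplasm by inhibitor proteins such as the product of Nfkbia, and cytokines, microbial products and cell stress release them to switch on chemokine, cytokine, adhesion and survival genes. Macrophages and neutrophils of a tumour use this pathway to make mediators that recruit further cells, and the lung is rich in such cells after smoke exposure. A lung tumour sample also holds endothelium, fibroblasts, lymphocytes and a varying amount of surrounding airway and alveolar tissue, so that a level in RNA from the whole piece is a sum over cells. Fewer cells of a type and less RNA per cell cannot be told apart in such samples.

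All values are log2 intensities normalized by the authors with RMA, and a difference is the mean of the deficient arrays minus the mean of the wild type arrays, so 1 is a doubling. Differences carry limma's moderated standard error over 3 arrays against 3, and p-values are limma's, adjusted by Benjamini-Hochberg over all 19937 genes, with a limit of 0.05. Within each genotype the 3 smoke arrays correlated at 0.9899 or more over all genes, which are not independent of each other. The first principal component of the 6 arrays held 90.3% of their variance and separated the genotypes, at -48.9 to -51.5 for the wild type arrays and 45.1 to 55.6 for the deficient arrays. Number of arrays, here 3 per group, limits the precision of every difference.

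Rela itself was not lower in the arrays labelled deficient. It read 9.04, 9.01 and 9.19 in the wild type arrays and 9.30, 9.37 and 9.27 in the deficient arrays. Every deficient array was above every wild type array, and the difference was 0.23 ± 0.07 (adjusted p = 0.00873). In air the difference was 0.20, and the interaction did not pass (0.03, adjusted p = 0.84). The call under smoke was lost when each array was centred on its median and when differences were tested against 0.25. The probe set does not say which exons of Rela it covers, and Rela in tumour and stromal cells would be read as well, so the level does not check the genotype labels. Readings of 2 other genes also sit against the labels: Cyp1a1, which smoke is known to induce, was lowest in the wild type arrays labelled smoke, and H2-Ea, at which C57BL/6 mice carry a deletion, gave a high signal in arrays labelled C57BL/6, as given with their values below. Whether the arrays carry the right genotype, exposure or strain label was not tested. Every difference below rests on those labels, and "deficient", "wild type" and "smoke" are used as they give them.

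The genotypes differed over most of the genome. limma called 11886 of 19937 genes (59.6%), of which 4518 were higher in the deficient arrays (22.7% of all genes) and 7368 lower (37%). The rises were the larger ones. Among called genes 1478 were at least 2-fold higher (7.41%) and 510 at least 2-fold lower (2.56%), and at 4-fold the counts were 509 (2.55%) and 20 (0.1%). The 3 and 3 arrays did not overlap in 12213 genes (61.3%). The median difference of all genes was -0.137, so many small falls sit near this shift. The array medians were 7.26 to 7.36 in the wild type and 7.44 to 7.47 in the deficient arrays. Centring each array on its median therefore made the median difference more negative, -0.28, and did not remove the shift. With centring 15529 of the 19937 genes were called, 11974 of them lower. Of these calls 22.9% were higher, against 38.0% as deposited. List counts after centring stand beside those totals. Because so much of the genome passed, each list of genes is given below as counts and a median beside these values.

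**Figure D1:**
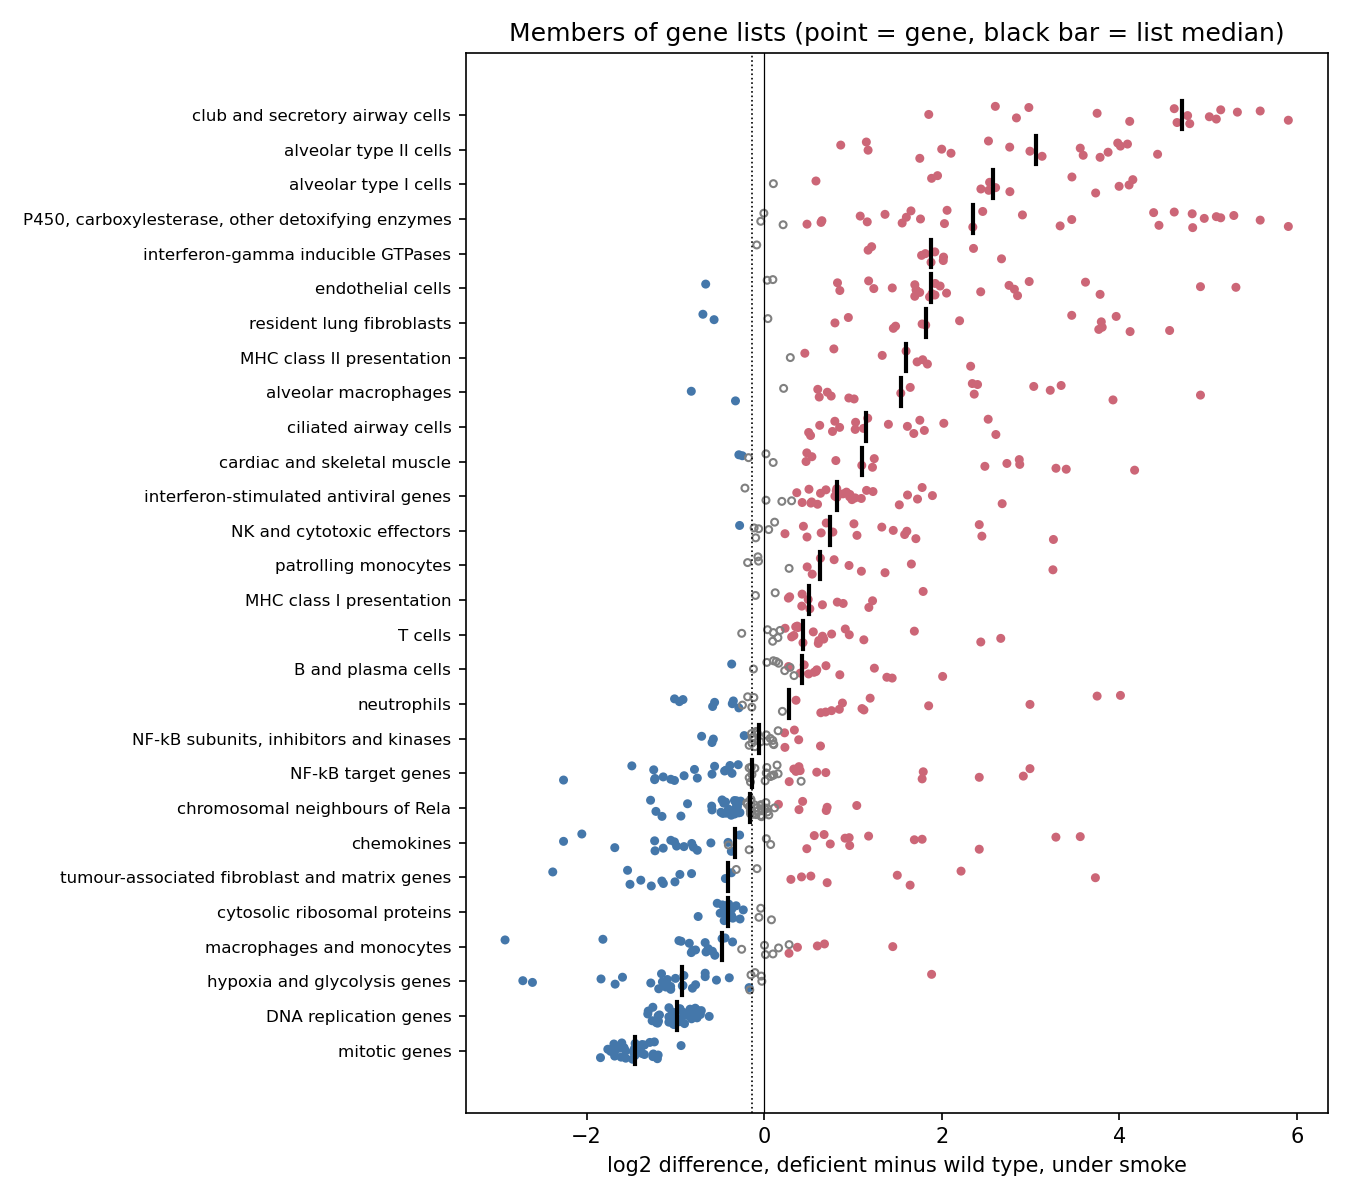
Log2 difference between deficient and wild type smoke arrays (horizontal axis) for the measured members of gene lists (rows). Each point is 1 gene, red where called higher, blue where called lower and open where not called. Black bars are list medians, and the dotted line is the median of all genes, -0.137. Lung epithelial lists lie at the top with medians up to 4.71, and all mitotic and replication genes lie below 0.

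Genes of airway and alveolar epithelium rose. All 16 measured genes of club and secretory airway cells rose, with a median of 4.71. All 18 of alveolar type II cells (median 3.06), 13 of 14 of alveolar type I cells (median 2.57) and all 18 of ciliated cells (median 1.14) rose too. Cyp2f2, a cytochrome P450 of club cells, had the largest rise of any named gene. It read 7.42, 7.25 and 7.18 in the wild type arrays and 13.13, 13.25 and 13.17 in the deficient arrays, a rise of 5.90 ± 0.08 (59.8-fold, adjusted p = 5.12e-14). Scgb1a1, the club cell secretoglobin, read 9.23, 8.69 and 9.06 in the wild type arrays and 13.76, 13.82 and 13.78 in the deficient arrays, a rise of 4.79 ± 0.11 (27.7-fold, adjusted p = 1.25e-12). In both genes the groups lay far apart and the deficient arrays were close together. Other secretory products of the airway rose as much, among them Bpifa1 (5.01), Bpifb1 (4.77) and Reg3g (5.33), the last an antibacterial lectin.

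Ager, the receptor for advanced glycation end products and a marker of type I cells, read 9.02, 9.07 and 9.13 in the wild type arrays and 12.73, 12.85 and 12.83 in the deficient arrays, 3.73 ± 0.07 higher (13.3-fold, adjusted p = 2.08e-13). The tight junction gene Cldn18 (4.0), the chloride channel gene Clic5 (4.11) and the anchoring protein gene Akap5 (4.15) rose alongside it. Among type II genes, Sftpa1 (3.13), Slc34a2 (3.87) and Sftpb (3.78) rose by more than Sftpc, the surfactant protein made by type II cells alone. Sftpc read 12.39, 12.30 and 12.24 in the wild type arrays and 14.04, 14.09 and 14.06 in the deficient arrays, a rise of 1.75 ± 0.06 from a level that was already high in the wild type arrays, so a transcript of type II cells was bright in every sample labelled as carcinoma cells. No marker of the carcinoma cells themselves was listed. The mean over the type II list was 8.76 to 8.98 in the wild type smoke arrays and 11.71 to 11.81 in the deficient ones. In air it was 10.79 to 10.97 in wild type and 11.75 to 11.80 in deficient arrays, so the wild type smoke arrays were the low group of the 4. The part of lung tissue in any other difference was not tested.

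Epithelial junction and keratin genes rose in 19 of 24 cases (median 1.53). E-cadherin, Cdh1, read 7.07, 7.27 and 7.09 in the wild type arrays and 10.68, 10.79 and 10.74 in the deficient arrays, 3.59 ± 0.08 higher. Epcam (3.12), Krt7 (3.05) and Krt19 (4.19) also rose, while Krt18, a keratin of simple epithelia, was the 1 member that fell (-0.24, adjusted p = 0.0191, and 0.0563 and 0.0838 without deficient replicate 2 or 3). Enzymes that handle foreign compounds moved with the epithelial lists: 28 of 31 rose and none fell (median 2.35). They included the carboxylesterase Ces1d (5.59), the flavin monooxygenases Fmo2 (5.14) and Fmo1 (4.96), the retinal dehydrogenase Aldh1a1 (5.09) and the alcohol dehydrogenase Adh1 (4.82).

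Vascular, muscle and resident stromal genes rose as well. 25 of 28 endothelial genes rose and 1 fell (median 1.88). Pecam1, the endothelial junction protein CD31, read 9.68, 9.56 and 9.54 in the wild type arrays and 11.37, 11.53 and 11.47 in the deficient arrays, 1.86 ± 0.07 higher (3.63-fold). The VEGF receptor Kdr rose by 2.85, the angiopoietin receptor Tek by 3.78 and Tmem100, an endothelial membrane protein, by 5.31. Apln, a peptide of sprouting endothelium, was the member that fell (-0.66 ± 0.08, adjusted p = 1.51e-05). Heart and skeletal muscle genes rose in 14 of 19 cases (median 1.10), led by the atrial light chain Myl7 (4.17), Actc1 (3.40) and Myh6 (3.29). In the same list 2 fell, Mylpf (-0.29) and Myh4 (-0.25), and both lost the call against a difference of 0.25. Both also lost it without wild type replicate 3 or deficient replicate 2. Myh4 lost it further without deficient replicate 3, with an intensity trend, quantile normalization or the replicate block, and on the 6 smoke arrays alone. The falls of this list numbered 0 to 3 when 1 array was left out.

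Smooth muscle and pericyte genes were divided, with 10 of 16 higher and 3 lower. The smooth muscle myosin Myh11 (2.67) and Des (2.40) rose, whereas Smtn (-0.56), Pdgfrb (-0.44) and Acta2 (-0.31) fell. Genes of resident lung fibroblasts rose in 14 of 17 cases (median 1.82), among them Inmt (4.57), Npnt (4.12), Itga8 (3.96) and Tcf21 (3.77), the last a transcription factor of lung mesenchyme. Dcn (-0.69) and Scara5 (-0.56) fell.

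Genes of activated fibroblasts and tumour matrix took the other direction more often, 12 of 22 lower and 8 higher (median -0.40). The matrix glycoprotein Thbs2 read 11.57, 11.64 and 11.58 in the wild type arrays and 9.44, 8.87 and 9.34 in the deficient arrays, a difference of -2.38 ± 0.14 (adjusted p = 6.74e-09). Lrrc15, a membrane protein of tumour fibroblasts, read 9.47, 9.23 and 9.37 in the wild type arrays and 6.94, 6.09 and 6.92 in the deficient arrays, a difference of -2.71 ± 0.19. Neither gene's groups overlapped, which was a condition for naming the largest falls. The collagen chain gene Col1a1 differed by -1.27 ± 0.09, while its partner chain Col1a2 (1.64), Bgn (2.22) and Postn (3.73) rose, so the 2 chains of type I collagen moved in opposite directions. Matrix proteinases and their inhibitors fell in 14 of 25 cases and rose in 6: the membrane proteinase Mmp14 differed by -1.13, and the inhibitor Timp3 by 3.82. Of 16 mesenchymal transition genes 11 fell, including Prrx1 (-1.89), Twist2 (-1.26) and Fn1 (-0.95), and 1 rose, Zeb2 (0.62).

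**Figure D2:**
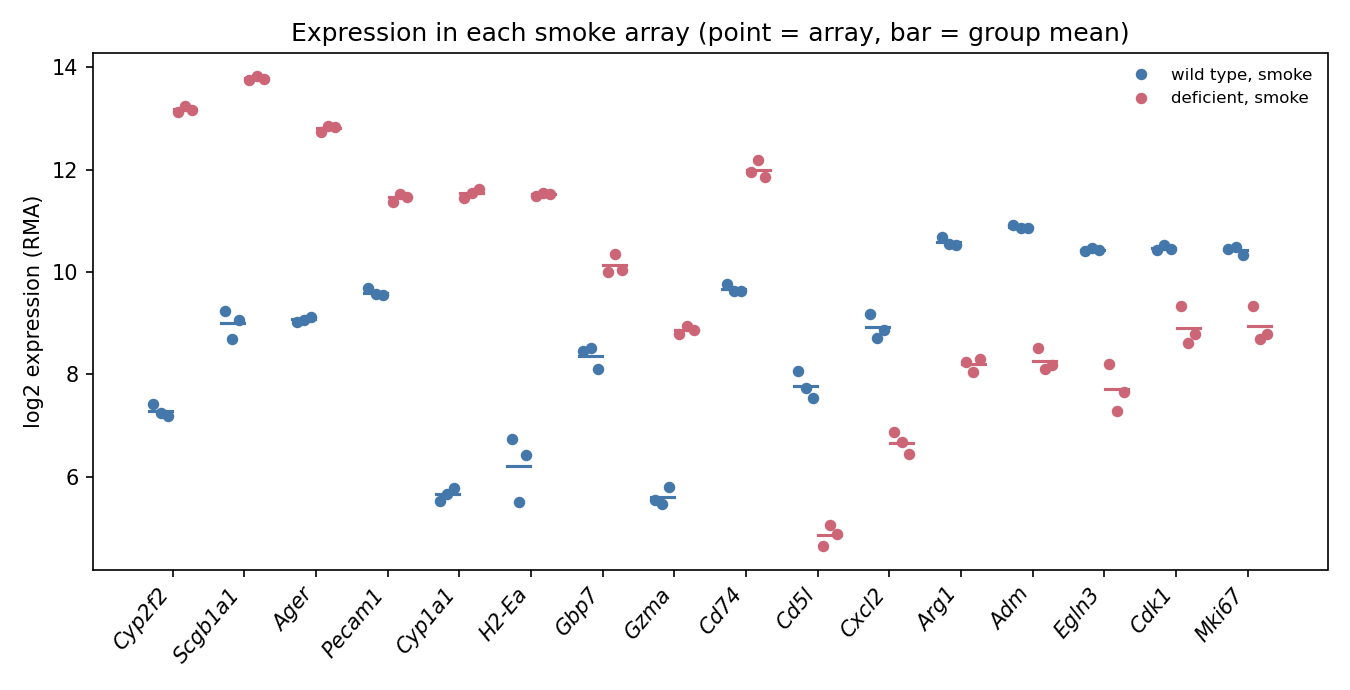
Log2 expression (vertical axis) of 16 genes (horizontal axis) in each smoke array. Blue points are wild type arrays, red points are deficient arrays and horizontal bars are group means. The 3 and 3 arrays do not overlap in any of these genes, which the naming rule required of the largest rises and falls. Deficient replicate 1 lies above the other deficient arrays in Cdk1 and Mki67.

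Genes of cell division were lower throughout. All 34 mitotic genes were lower in the deficient arrays (median -1.46), as were all 37 DNA replication genes (median -0.98). Cdk1, the kinase that drives entry into mitosis, read 10.43, 10.53 and 10.44 in the wild type arrays and 9.33, 8.61 and 8.78 in the deficient arrays, a difference of -1.56 ± 0.14 (2.95-fold lower, adjusted p = 4.94e-07). Mki67, the gene of the proliferation antigen Ki-67, read 10.45, 10.49 and 10.33 in the wild type arrays and 9.34, 8.70 and 8.80 in the deficient arrays, a difference of -1.48 ± 0.14 (adjusted p = 9.06e-07). In both genes the first deficient array lay above the other deficient arrays but below every wild type array. The spindle and kinetochore genes Cenpf (-1.76), Kif2c (-1.73), Ndc80 (-1.46) and Bub1b (-1.46) fell by similar amounts, and so did the replication licensing genes Cdt1 (-1.26) and Mcm6 (-1.21). Myc, a transcription factor of growth and ribosome production, read 12.24, 12.11 and 12.12 in the wild type arrays and 10.95, 10.31 and 10.42 in the deficient arrays, 3.02-fold lower. Ccnd1, the cyclin of the early cell cycle, differed by -0.21 (adjusted p = 0.0682) and passed the test in 6 of the other settings tried, such as without wild type replicate 1 (-0.27, adjusted p = 0.0259) or deficient replicate 1 (-0.30, adjusted p = 0.0157) and with centring on the median (-0.35, adjusted p = 0.00241). Cytosolic ribosomal protein genes fell in 19 of 22 cases with a median of -0.41, and respiratory chain genes in 14 of 29 with a median of -0.14, close to that of all genes. The respiratory chain count moved with the scaling, to 25 after centring on the median and 21 after quantile normalization, and none passed against a difference of 0.25.

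The Cdk1 promoter is shown because it carries the elements through which cell cycle genes are known to be timed. It spans chr10:69352863-69353162, minus strand of GRCm38.p6 (RefSeq), from 250 bases before the start site to 50 after it, and the capitals mark the cell cycle homology region TTTGAA and the CCAAT box, here read as ATTGG on the other strand.
Cdk1: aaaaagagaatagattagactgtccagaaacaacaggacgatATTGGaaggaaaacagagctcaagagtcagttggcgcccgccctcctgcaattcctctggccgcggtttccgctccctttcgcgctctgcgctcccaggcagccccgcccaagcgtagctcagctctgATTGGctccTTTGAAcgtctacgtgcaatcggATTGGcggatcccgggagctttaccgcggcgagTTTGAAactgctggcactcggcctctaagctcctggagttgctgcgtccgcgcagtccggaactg
The homology regions begin 71 and 15 bases before the start site, and the CCAAT boxes 208, 80 and 48 bases before it. Searched on both strands, TTTGAA stood in 22 of 29 mitotic promoters (75.9%) against 17.3% of all 15613 measured genes with a promoter entry, and in 3 of 32 replication promoters (9.38%). CCAAT stood in 21 of the 29 mitotic promoters (72.4%) and in 41.7% of all. A match of letters is a description and does not show that a factor binds there.

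Genes of the hypoxia response and glycolysis fell in 25 of 31 cases (median -0.92). Adm, the vasodilator peptide adrenomedullin, read 10.91, 10.86 and 10.87 in the wild type arrays and 8.52, 8.11 and 8.18 in the deficient arrays, a difference of -2.61 ± 0.13 (6.11-fold lower, adjusted p = 1.3e-09). Egln3, an oxygen-sensing prolyl hydroxylase that is itself induced by low oxygen, read 10.41, 10.46 and 10.42 in the wild type arrays and 8.20, 7.28 and 7.66 in the deficient arrays, a difference of -2.72 ± 0.21. Neither gene's groups overlapped, again a condition for naming the largest falls. Ndrg1 (-1.84) and Ero1a (-1.60) fell, and so did the glucose transporter Slc2a1 (-1.68) and the mitophagy gene Bnip3 (-1.15), both named after their values were seen. Vegfa, which is also expressed by alveolar epithelium, was the 1 member that rose. It read 9.71, 9.77 and 9.70 in the wild type arrays and 11.52, 11.68 and 11.63 in the deficient arrays, 1.88 ± 0.07 higher (adjusted p = 6.85e-11).

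The Adm promoter (chr7:110627407-110627706, plus strand of GRCm38.p6, RefSeq) is shown for its hypoxia response cores, in capitals, which are GCGTG read on the other strand.
Adm: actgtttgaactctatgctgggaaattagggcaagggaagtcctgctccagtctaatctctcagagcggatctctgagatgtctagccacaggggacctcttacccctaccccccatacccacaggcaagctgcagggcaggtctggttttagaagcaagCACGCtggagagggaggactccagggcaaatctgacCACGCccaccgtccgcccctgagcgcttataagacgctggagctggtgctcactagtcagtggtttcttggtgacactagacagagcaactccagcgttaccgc
The cores begin 90 and 54 bases before the start site. ACGTG or GCGTG stood in 26 of 28 promoters of the hypoxia list (92.9%) and in 55.3% of all measured promoters, so the letters are common.

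Macrophage genes fell in 16 of 27 cases and rose in 5, or 3 after centring on the median (median -0.47), with list means of 9.43 to 9.60 in the wild type and 9.05 to 9.14 in the deficient arrays. Cd5l, a survival factor secreted by macrophages, was the largest fall of all named genes. It read 8.06, 7.73 and 7.54 in the wild type arrays and 4.64, 5.06 and 4.87 in the deficient arrays, a difference of -2.92 ± 0.23 (7.56-fold lower, adjusted p = 2.02e-07). Arg1, the arginase of macrophages that dampen T cells, read 10.69, 10.54 and 10.53 in the wild type arrays and 8.24, 8.05 and 8.30 in the deficient arrays, a difference of -2.39 ± 0.18 (5.24-fold lower, adjusted p = 1.25e-07). The groups did not overlap in either gene, which was required of the largest falls. The folate receptor Folr2 (-1.82), the lipid receptor Trem2 (-0.66), the mannose receptor Mrc1 (-0.82) and Adgre1, which encodes F4/80 (-0.56), fell too. The complement genes C1qa (-0.58), C1qb (-0.81) and C1qc (-0.77) and the integrin Itgam (-0.94), named after their values were seen, were lower. Csf1r, the receptor for the macrophage growth factor and likewise named afterwards, read 10.04, 9.97 and 10.04 in the wild type arrays and 10.08, 10.02 and 9.99 in the deficient arrays, so the macrophage genes did not move as a block. Lyz2, a lysozyme made by macrophages, neutrophils and alveolar type II cells, rose by 1.45.

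Genes of alveolar macrophages rose instead, 16 of 19 (median 1.54), with Atp6v0d2 (3.22), Plet1 (3.34) and Cd36 (3.04), and 2 fell, among them the mannose receptor Mrc1. Patrolling monocyte genes rose in 9 of 13 cases (median 0.63), but their largest value, Ace (3.25), belongs to an enzyme that lung endothelium also makes. Neutrophil genes went both ways, 13 of 26 higher and 8 lower, or 5 lower without wild type replicate 2. The higher ones included Chil1 (4.01), Hp (3.75) and Lcn2 (2.99), which epithelium also expresses, and the lower ones Clec4e (-1.01), Il1r2 (-0.96) and Clec4d (-0.91). The calprotectin gene S100a8 rose by 0.64 ± 0.08, and Ly6g, the defining surface marker, read 5.25, 5.28 and 5.55 in the wild type arrays and 5.46, 5.62 and 5.61 in the deficient arrays and was not called (adjusted p = 0.128). Retnla and Chil3, made by alternatively activated macrophages and in the lung also by airway cells and alveolar macrophages, rose by 5.15 and 3.93, in contrast to Arg1. The alternative activation list stood at 9 of 15 higher and 4 lower.

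The genes that NF-kB is known to switch on did not fall as a group. Of 45 measured targets 18 fell, 12 rose and 15 were not called, with a median of -0.14, against -0.137 for all genes. Of 26 subunits, inhibitors and kinases 17 were not called, and the share called, 34.6%, was below the 59.6% of all genes. As deposited 5 were higher and 4 lower, against 2 and 13 after centring on the median and 5 and 9 after quantile normalization. Rel rose by 0.63 and Nfkbiz fell (-0.59), while Relb (-0.11, adjusted p = 0.347), Nfkb2 (-0.17, adjusted p = 0.0645) and the inhibitor Nfkbia (0.11, adjusted p = 0.159) did not pass the test. Nfkb2 passed as lower in 4 other settings (adjusted p = 0.0473 with an intensity trend, 0.0284 with array weights, 0.0301 after quantile normalization and 0.00158 after centring), and Relb with array weights (0.0454) and centring (0.0195). The cytokine genes depended on the setting too. Tnf read 6.67, 6.78 and 6.75 in the wild type arrays and 6.54, 6.53 and 6.67 in the deficient arrays (adjusted p = 0.11), and passed as lower with array weights (0.0176), quantile normalization (0.0261) and centring (0.00351). Il1b read 7.94, 7.72 and 7.60 in the wild type arrays and 8.21, 8.22 and 8.08 in the deficient arrays, with groups that did not overlap, yet it missed the limit (adjusted p = 0.143), but passed when fitted on the 6 smoke arrays alone (adjusted p = 0.009) and with array weights (adjusted p = 0.0294). Il6 differed by 0.01 (adjusted p = 0.913). Targets that rose included the adhesion gene Icam1 (2.92), Lcn2 (2.99), Ccl5 (2.42) and Traf1 (1.79), of which Icam1 and Lcn2 are also made by lung epithelium.

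Chemokines went both ways, 17 of 34 lower and 13 higher. Among the lower ones was the neutrophil attractant Cxcl2, which read 9.18, 8.71 and 8.88 in the wild type arrays and 6.87, 6.68 and 6.44 in the deficient arrays, a difference of -2.26 ± 0.21 (4.79-fold lower, adjusted p = 7.93e-07), and its deficient arrays all lay below its wild type arrays. Cxcl1 read 8.61, 8.69 and 8.60 in the wild type arrays and 7.55, 7.66 and 7.66 in the deficient arrays, a difference of -1.01 ± 0.10 (adjusted p = 1.3e-06). Cxcl3, which sits beside them and was named after its values were seen, differed by -1.23 ± 0.18 (adjusted p = 7.14e-05). The monocyte attractants Ccl8 (-1.68), Ccl2 (-1.23) and Ccl7 (-1.14) fell as well, Ccl2 and Ccl7 being named after their values were seen. The epithelial Cxcl15 (3.56) and the stromal Cxcl14 (3.28) were the highest of the risers. Ptgs2, the inducible prostaglandin synthase, fell (-1.24, named afterwards), and Nos2, the inducible nitric oxide synthase, fell (-0.79).

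The promoters of the 3 neighbouring neutrophil chemokines are shown because they hold the same kB site, the DNA element that NF-kB dimers recognise, and their transcripts were all lower. They lie at chr5:90890995-90891294, plus strand (Cxcl1), chr5:90903649-90903948, plus strand (Cxcl2) and chr5:90785851-90786150, plus strand (Cxcl3) of GRCm38.p6 (RefSeq), and capitals mark the site.
Cxcl1: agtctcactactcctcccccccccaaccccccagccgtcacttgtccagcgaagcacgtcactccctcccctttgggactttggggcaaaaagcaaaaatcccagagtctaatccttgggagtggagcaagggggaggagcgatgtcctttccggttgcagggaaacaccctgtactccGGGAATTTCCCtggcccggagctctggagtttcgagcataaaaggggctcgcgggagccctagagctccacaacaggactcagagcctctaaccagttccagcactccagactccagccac
Cxcl2: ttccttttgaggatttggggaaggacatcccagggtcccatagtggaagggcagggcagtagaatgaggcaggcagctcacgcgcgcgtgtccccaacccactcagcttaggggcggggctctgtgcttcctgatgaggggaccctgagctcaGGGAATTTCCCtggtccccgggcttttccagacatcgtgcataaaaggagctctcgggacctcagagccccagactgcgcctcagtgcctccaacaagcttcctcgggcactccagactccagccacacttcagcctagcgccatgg
Cxcl3: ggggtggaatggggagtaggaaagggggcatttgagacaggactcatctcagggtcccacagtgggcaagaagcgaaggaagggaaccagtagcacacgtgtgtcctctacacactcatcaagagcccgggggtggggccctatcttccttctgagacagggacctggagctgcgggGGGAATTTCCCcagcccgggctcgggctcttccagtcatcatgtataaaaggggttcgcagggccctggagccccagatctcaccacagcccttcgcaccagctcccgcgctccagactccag
The site begins 71, 97 and 73 bases before the start site of Cxcl1, Cxcl2 and Cxcl3, and matches on both strands at positions shifted by 1 base. A kB site on either strand stood in 18 of 31 promoters of the target list (58.1%), in 7 of 25 chemokine promoters (28.0%) and in 1713 of all 15613 measured promoters. Among the named genes with the largest falls it stood in 3 of 12, and among the largest rises in 2 of 11.

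Genes of antigen presentation and the interferon response were higher in the deficient arrays. 10 of 11 GTPases induced by interferon-gamma rose (median 1.88), as did 27 of 31 antiviral genes (median 0.82), 8 of 9 genes of MHC class II presentation (median 1.60) and 12 of 14 of class I (median 0.50), and no member of these lists fell. Gbp7, a guanylate-binding GTPase of cell defence, read 8.47, 8.51 and 8.10 in the wild type arrays and 9.99, 10.36 and 10.04 in the deficient arrays, 1.77 ± 0.17 higher (3.42-fold, adjusted p = 1.09e-06). The invariant chain Cd74 read 9.76, 9.62 and 9.62 in the wild type arrays and 11.95, 12.19 and 11.86 in the deficient arrays, 2.32 ± 0.11 higher (adjusted p = 1.4e-09). Groups did not overlap in either gene. The related Gbp4 (2.67), Gbp9 (1.92) and Gbp8 (1.81) rose, as did the antiviral Ifit3 (2.68), Ifih1 (1.89) and Usp18 (1.61), the class I gene H2-Q4 (1.79) and the immunoproteasome subunit Psmb9 (1.22). Among class II chains, H2-Aa rose by 1.84 and H2-Eb1 by 1.78.

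H2-Ea, the class II E alpha chain, stood out. It read 6.73, 5.51 and 6.41 in the wild type arrays and 11.48, 11.55 and 11.52 in the deficient arrays, 5.30 ± 0.32 higher (39.4-fold, adjusted p = 1.25e-08), although its partner H2-Eb1 rose far less. In air it read 9.47, 9.71 and 9.95 in wild type and 8.89, 8.59 and 9.95 in deficient arrays, so the wild type smoke arrays were the low group. As background, C57BL/6 mice carry a deletion at this gene and make no E alpha protein, whereas several other strains have an intact copy. A signal this high in arrays labelled C57BL/6 goes against that label, and the strain background of the arrays was not tested.

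The Gbp7 promoter (chr3:142530086-142530385, plus strand of GRCm38.p6, RefSeq) is shown as an example of the interferon-response elements of this group. Capitals mark the gamma-activated cores TTCNNNGAA and the interferon-stimulated response core (GAAA, any 2 bases, then GAAA), here read on the other strand.
Gbp7: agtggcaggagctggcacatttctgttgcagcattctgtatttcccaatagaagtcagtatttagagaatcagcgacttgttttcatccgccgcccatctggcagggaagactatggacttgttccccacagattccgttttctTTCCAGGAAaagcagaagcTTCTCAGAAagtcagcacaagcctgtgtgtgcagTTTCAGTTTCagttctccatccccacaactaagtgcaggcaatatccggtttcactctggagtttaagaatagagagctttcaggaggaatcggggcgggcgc
The gamma-activated cores begin 106 and 87 bases before the start site and the response core 53 bases before it. The response core stood in 5 of 5 GTPase promoters with an entry, in 12 of 22 antiviral promoters (54.5%) and in 3.89% of all measured promoters, and the gamma-activated core in 8.99% of all.

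Lymphocyte genes were higher. 19 of 25 T cell genes (median 0.44), 16 of 22 of natural killer and cytotoxic cells (median 0.74) and 13 of 22 of B and plasma cells (median 0.43) rose. Gzma, a protease of cytotoxic granules, read 5.55, 5.46 and 5.80 in the wild type arrays and 8.78, 8.94 and 8.87 in the deficient arrays, 3.26 ± 0.11 higher (9.56-fold, adjusted p = 2.41e-11), with no overlap. Nkg7 (2.45) and Klrd1 (1.58) rose with it, as did Cd2 (2.66), Cd3g (2.44) and Il7r (1.69) of T cells and the B cell gene Ms4a1 (2.01). Cd3e, a defining T cell gene named after its values were seen, rose by only 0.44 ± 0.16 (adjusted p = 0.0333), and it lost the call without wild type replicate 1 or 2 or deficient replicate 2 or 3 (adjusted p = 0.0598 to 0.124), with the replicate block (0.0514) and after either rescaling of the arrays (0.0784 and 0.0864). Ptprc, expressed on all leukocytes, rose by 1.29 ± 0.10. Of 18 checkpoint and suppression genes 7 rose, including Cd274 (PD-L1, 0.77) and the tryptophan-degrading enzyme Ido1 (1.52), while Arg1 and Nos2 fell. The other 9 were not called, so the share called, 50%, was below the 59.6% of all genes (median 0.10). After centring on the median 5 were higher and 4 lower. Dendritic cell genes rose in 10 of 17 cases (median 0.37), with Itgax (2.37) highest and Fscn1 (-1.65) lowest among the named ones. Mast cell, basophil and eosinophil genes rose in 4 of 21 cases and fell in 7 (median -0.16). The share called, 52.4%, was below the 59.6% of all genes. The falls were 3 to 10 when 1 array was left out, 15 after centring on the median and 6 after quantile normalization. When only genes that reached log2 6 on 3 or more arrays were kept, the list median was 0.95.

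Genes that smoke is known to induce did not move together. Cyp1a1, the P450 that the aryl hydrocarbon receptor induces in response to the polycyclic hydrocarbons of smoke, read 5.52, 5.67 and 5.77 in the wild type arrays and 11.46, 11.54 and 11.63 in the deficient arrays, 5.89 ± 0.10 higher (59.3-fold, adjusted p = 1.65e-13). The wild type arrays labelled smoke were the lowest of the series for this gene: in air it read 7.68, 7.71 and 7.97 in wild type and 6.56, 6.54 and 6.30 in deficient arrays. Cyp1b1 (2.61), Aldh3a1 (2.91) and the receptor gene Ahr (2.03) rose, Tiparp (-0.53) and Cyp1a2 (-0.39) fell, and the repressor Ahrr, named after its values were seen, differed by -0.27 (adjusted p = 0.096). Of the 10 genes of this pathway 6 rose and 2 fell (median 0.28, and 0.13 after centring on the median). The median was 1.20 when only genes that reached log2 6 on 3 or more arrays were kept. Cyp1a2 was dim, with means of 4.85 in the wild type and 4.46 in the deficient arrays. The NRF2 antioxidant genes divided into 11 higher and 7 lower, or 12 lower after centring, of 29 (median 0.025, and -0.12 after centring on the median): Gsta3, an airway glutathione transferase, rose by 4.62 and Gclc by 1.26, whereas the heme oxygenase Hmox1, high in macrophages, fell (-1.65). Nqo1, a quinone reductase, rose by 0.36 ± 0.10, a call lost after centring on the median (0.22).

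The Cyp1a1 promoter (chr9:57697363-57697662, plus strand of GRCm38.p6, RefSeq) is shown for its single xenobiotic response core GCGTG, in capitals, which begins 54 bases before the start site.
Cyp1a1: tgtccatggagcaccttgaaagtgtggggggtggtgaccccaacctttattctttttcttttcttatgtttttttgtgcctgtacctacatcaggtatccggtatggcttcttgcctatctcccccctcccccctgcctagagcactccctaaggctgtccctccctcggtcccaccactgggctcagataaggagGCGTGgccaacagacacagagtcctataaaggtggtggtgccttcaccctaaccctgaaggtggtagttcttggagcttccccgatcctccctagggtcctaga
GCGTG on either strand stood in 5 of 7 promoters of the receptor's list (71.4%) and in 44.4% of all, and it is also 1 of the 2 forms of the hypoxia core above. The enhancer of Cyp1a1 that is known to bind the receptor lies further upstream than this window.

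Signalling, metabolic and growth lists showed smaller shifts. Wnt ligands, receptors and antagonists rose in 16 of 40 cases and fell in 12 (median 0.065, and -0.078 after centring on the median). The receptor Fzd4 (2.21) and the secreted Dkk3 (2.31) rose, while the antagonist Dkk2 (-2.08) and the ligand Wnt7b (-1.03) fell. In the beta-catenin branch 12 of 28 rose and 10 fell: Axin2 rose by 0.42 ± 0.08, and Ctnnb1, which encodes beta-catenin, by 0.23 ± 0.06, a call lost after centring. Of 16 imprinted growth genes 8 fell, with Peg10 (-2.21 ± 0.09) and Peg3 (-1.27, named afterwards) among them, but the count of falls was 5 without wild type replicate 2 or deficient replicate 1, and 4 without wild type replicate 3 or deficient replicate 2 or 3. Other falls of more than 4-fold included the growth factor Ptn (-2.19), the retinol transporter Stra6 (-2.34), Islr (-2.21), Cd109 (-2.31), Raet1d, a ligand of the activating receptor NKG2D (-2.35), Plac1 (-2.38) and the clotting factor chain F13a1 (-2.31). Each of those 7 had 3 deficient arrays below all 3 wild type arrays, but only genes without overlap could be named among the largest falls.

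Of 17 clock genes 11 rose and 4 fell (median 0.43), with Per3 (1.31) and Tef (1.38) higher and Arntl (-0.77) and Ciart (-0.73) lower. In air Ciart was 0.92 higher in deficient arrays. Zbtb16 (3.23), Tsc22d3 (1.60) and Klf9 (1.64), known targets of the glucocorticoid receptor, rose, although their list as a whole stood at 8 higher and 6 lower of 19, or 10 lower after centring on the median. Complement and coagulation genes rose in 14 of 23 cases, led by C7 (4.88). The remaining lists held 13 higher and 6 lower of 23 immediate early genes, 6 and 6 of 19 p53 targets, 5 and 10 of 26 stress response genes (18 lower after centring), and 6 and 8 of 19 eicosanoid synthesis genes. Of the 60 measured genes nearest to Rela on its chromosome, 30 on each side, 27 fell and 6 rose, so 55% were called against 59.6% of all genes. Centring raised these falls to 41. Malat1, a nuclear long RNA (1.04), Rin1 (-1.15) and Fosl1 (-1.22) were those with the smallest p.

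Genes of signalling between cells went both ways. Of 31 cytokine and receptor genes 17 rose, with the death ligand Tnfsf10 (3.55) and the B cell survival factor Tnfsf13b (2.31) among them, and 9 fell, including Osm (-0.51). Toll-like receptors and adaptors rose in 7 of 19 cases and fell in 3, against 4 and 7 after centring on the median and 6 and 7 after quantile normalization. Tlr3, which senses double-stranded RNA, rose by 0.93, while the endotoxin receptor Tlr4 fell (-0.44). Leukocyte adhesion genes rose in 11 of 18 cases (median 0.82), with Icam2 (2.09) higher and Vcam1 (-0.90) lower. Of the Ly6, Ms4a and Schlafen families 11 of 26 rose and 5 fell, or 9 fell after centring. Within the Ms4a family Ms4a4d rose (3.45) while Ms4a4a (-1.53) and Ms4a7 (-0.84) fell. Mesothelial and fat cell genes rose in 8 of 15 cases, led by Upk1b (2.69). Erythroid and platelet genes rose in 5 of 10, with the heme synthesis enzyme Alas2 higher (3.25) and the platelet factor Pf4, which some macrophages also express, lower (-2.05).

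**Figure D3:**
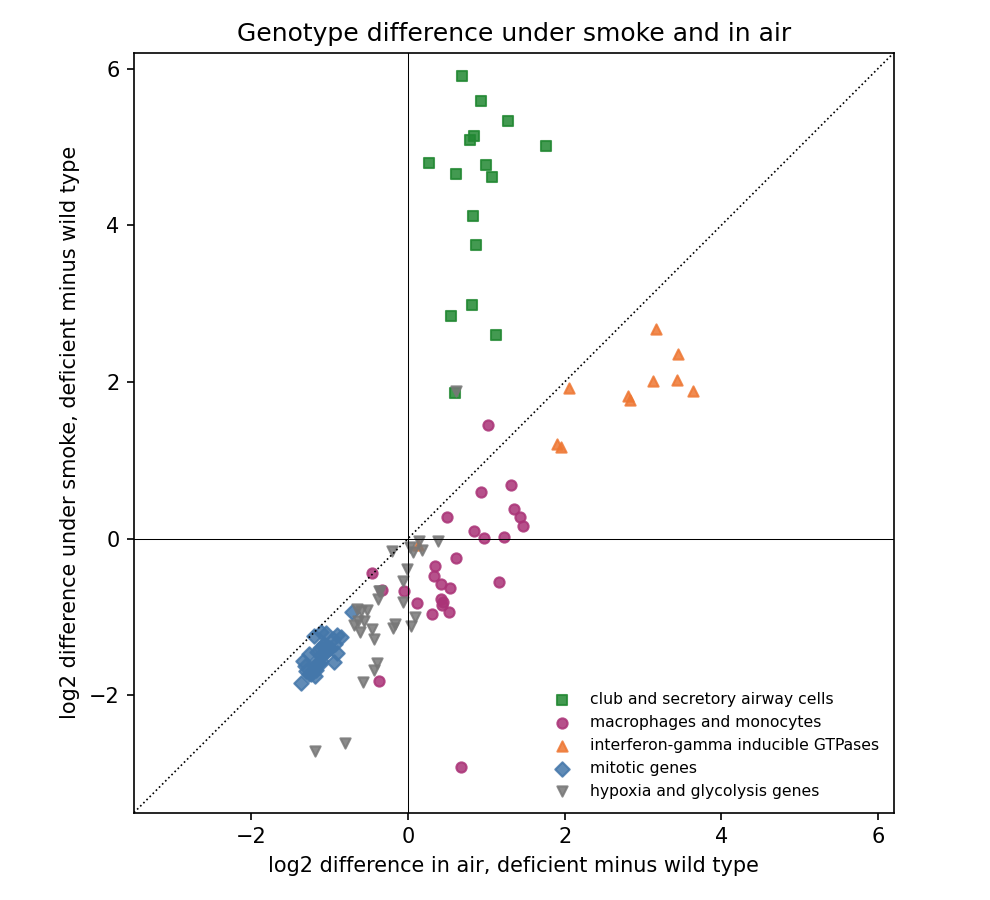
Log2 genotype difference under smoke (vertical axis) against that in air (horizontal axis) for the members of 5 gene lists. Each point is 1 gene, and on the dotted diagonal both differences are equal. Club cell genes lie far above the diagonal, GTPases and most macrophage genes below it, and mitotic genes close to it in the lower left.

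The genotype difference was then set beside that in air. The air means come from other arrays, but the spread was estimated over all 12 arrays, so the calls in air are not independent of the smoke arrays. In air limma called 7674 genes (38.5%). Of the smoke calls 6597 were called in the same direction in air, which is 55.5% of the smoke calls and 86.0% of the air calls, and 98 were called in the opposite direction. The test of the difference itself, the interaction, passed in 2909 genes (14.6%), 1773 of them positive (8.89%) and 1136 negative (5.7%). The count was 4969 without wild type smoke replicate 1. Among the smoke calls 2638 passed this test, and in 2384 of these the difference was larger in size under smoke. Being limited to genes called under smoke, this split favours larger differences there.

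The epithelial genes differed far more under smoke than in air. The club cell list had a median of 0.83 in air against 4.71 under smoke, and the interaction passed in all 16 members. Cyp2f2 had an interaction of 5.22 ± 0.11 (adjusted p = 1.24e-11) and Scgb1a1 of 4.53 ± 0.16 (adjusted p = 6.47e-10). Scgb1a1 did not pass in air (0.26, adjusted p = 0.0873), whereas 15 of the 16 members of its list were called higher there. Its signal was already high in every air array, at 13.35 to 13.60 in wild type and 13.69 to 13.72 in deficient arrays. Cyp1a1 had opposite signs, -1.32 in air (adjusted p = 3.97e-07) and 5.89 under smoke, with an interaction of 7.21 ± 0.14. The hypoxia list also moved more under smoke, with a median of -0.37 in air and 19 of 31 members past the interaction in the negative direction. Adm differed by -0.80 in air, and its interaction was -1.81 ± 0.18 (adjusted p = 9.75e-06).

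**Figure D4:**
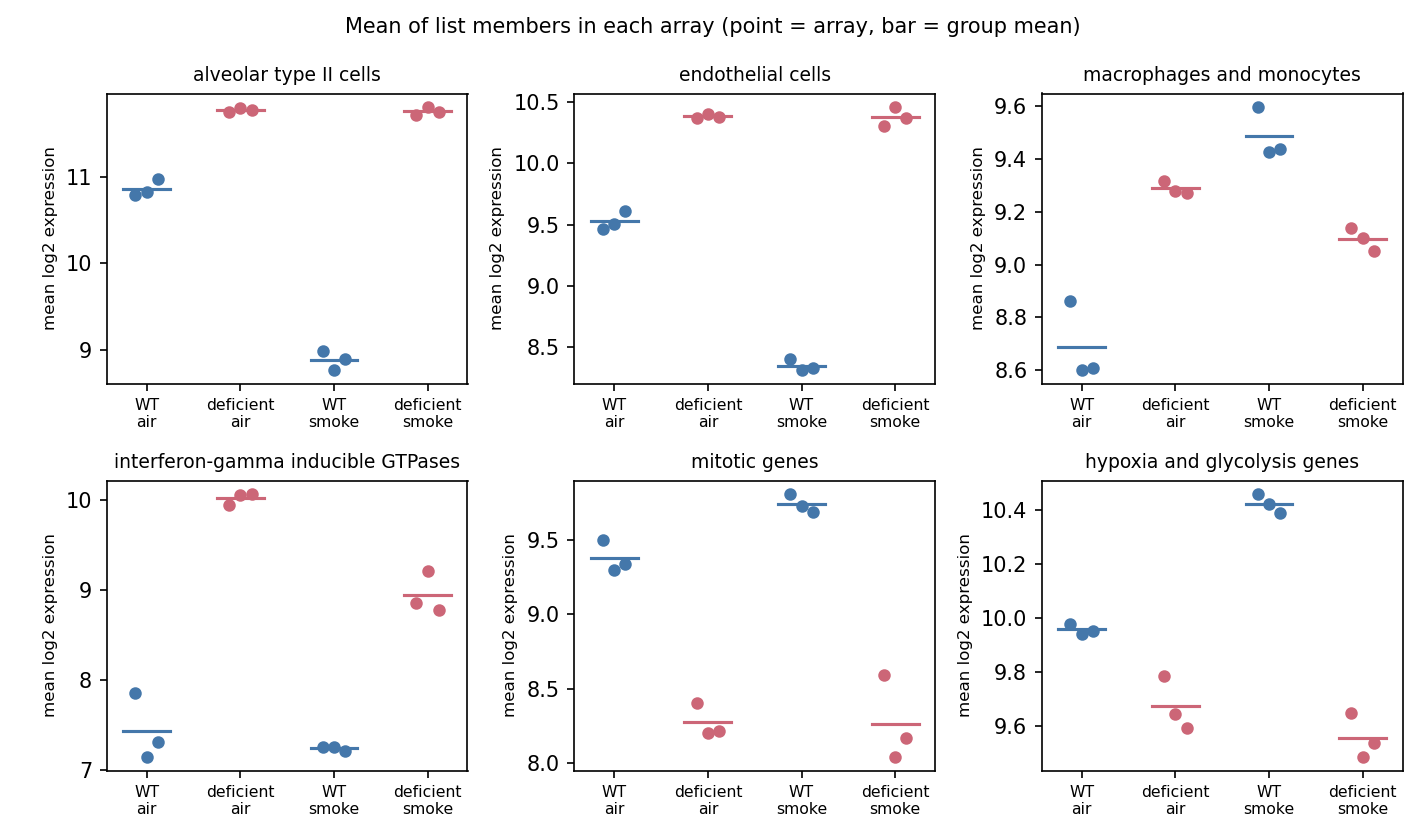
Mean log2 expression over the members of 6 gene lists (vertical axes, each panel on its own scale) in every array of the 4 groups (horizontal axis). Points are arrays and bars are group means. The wild type smoke arrays are the lowest group for the alveolar type II and endothelial lists and the highest for macrophage, mitotic and hypoxia lists.

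Macrophage genes changed direction between the exposures. In air 21 of 27 were higher in deficient arrays (median 0.52) and 2 lower, whereas under smoke 16 were lower, and 20 had a negative interaction. Adgre1 was 1.16 higher in air and lower under smoke (-0.56), with an interaction of -1.71 ± 0.17 (adjusted p = 7.96e-06). Cd5l differed by 0.68 in air (adjusted p = 0.033), and its interaction was -3.60 ± 0.33. The chemokine Cxcl2 did not differ detectably in air (0.02, adjusted p = 0.957) and had an interaction of -2.28 ± 0.29 (adjusted p = 0.0001). NF-kB targets had 18 negative and 3 positive interactions of 45. Tnf was 0.68 higher in air (adjusted p = 1.53e-05) but not called under smoke, with an interaction of -0.84 ± 0.11 (adjusted p = 0.000155). The Fc receptor Fcgr4 was 3.00 higher in air and 0.75 under smoke (interaction -2.26 ± 0.40), but its smoke call was lost without either wild type replicate 2 or 3 or deficient replicate 2 or 3 (adjusted p = 0.0578 to 0.12).

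The interferon-gamma GTPases rose under both exposures, by a median of 2.83 in air and 1.88 under smoke, and 6 of 11 had a negative interaction. Gbp7 rose by 2.83 in air, and its interaction was -1.06 ± 0.24 (adjusted p = 0.00774). Cd274 rose by 2.44 in air against 0.77 under smoke (interaction -1.68 ± 0.17, adjusted p = 1.42e-05). Mitotic genes fell in both, with medians of -1.11 and -1.46, and the interaction passed in 3 of 34. Cholesterol and fatty acid synthesis genes took different directions, with 16 of 23 lower in air and 5 lower (8 after centring) and 9 higher under smoke, and 17 had a positive interaction. Scd1, a fatty acid desaturase expressed in type II cells, rose by 2.53 under smoke and 0.37 in air. Cyp51, a sterol demethylase named after its values were seen, differed by -0.04 under smoke (adjusted p = 0.718) and -0.91 in air.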

How the data were processed

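Total RNA of 12 lung tumour samples was measured on Affymetrix mouse gene arrays with 1 biotin channel. The deposited values are log2 intensities that the authors made in Affymetrix Expression Console with RMA (background correction, quantile normalization and probe set summary), per the submitters' processing notes; no version is given in the sources used here. Of 34760 probe sets, 21640 named 1 gene in the platform annotation, 1321 named several and 11799 were not listed. A gene took its brightest probe set (19937 genes, 954 with several). Groups follow the sample titles.

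All 12 arrays entered one limma 3.58.1 model with a mean for each of the 4 groups (R 4.3.3; residual df 8, prior df 4.83), giving 2-sided contrasts of genotype under smoke, in air and their interaction. On simulated smoke contrasts it found all 100 genes given a shift of 1, 59 of 100 given -0.5, and 10 of 19737 given none.

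The comparison, its 56 gene lists (1223 of 1365 entries measured; the histone list had none) and the motifs were chosen with earlier results of these data known. Genes named were the 15 largest rises and falls without overlap, up to 4 members per list by p, up to 3 that went against their list, a fixed set, and the 5 largest interactions of each sign; others are marked in the text. Lack of overlap among the largest rises and falls was therefore set by the choice and is no separate result. Promoter sequences are RefSeq's (GRCm38.p6), with an entry for 15613 genes; the homology region, CCAAT and hypoxia motifs were added after the data were seen. Deviations of same-numbered deficient and wild type smoke arrays correlated at 0.324, -0.0069 and 0.351, and those of differently numbered arrays at -0.392 to 0.213. Whether the replicate numbers mark pairs or another shared factor was not tested, and the main model holds no term for them.

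Other settings tried: keeping only genes that reached log2 6 on 3 or more arrays, averaging probe sets per gene, testing probe sets singly, a prior that follows intensity, array weights, quantile normalization, centring on the median, the replicate block, the 6 smoke arrays alone, limma's treat against 0.25, and leaving out each array.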

Additional observations from a re-analysis of the deposited data

Results flagged for a closer look

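The genotype difference under smoke departed from that in air in 228 named genes by limma's interaction test (adjusted over all genes). The 15 given here come from the largest rises and falls, the genes fixed by name and the largest interactions, and either had differences of opposite sign under smoke and in air or were among the 5 largest interactions of their sign. Each value is the log2 difference under smoke minus that in air. It was positive in the P450 Cyp1a1 (7.21), the class II chain H2-Ea (5.87), the club cell genes Cyp2f2 (5.22) and Scgb1a1 (4.53), the carboxylesterase Ces1d (4.66) and the quinone reductase Nqo1 (1.47). Nqo1 and Cyp1a1 were lower in deficient arrays in air and higher under smoke.

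It was negative in genes of myeloid cells and inflammation. These were the macrophage genes Cd5l (-3.6), Adgre1 (-1.71) and Mrc1 (-0.934), the membrane protein Ms4a4a (-2.47), the Fc receptor Fcgr4 (-2.26), the chemokine Cxcl2 (-2.28), the lectin receptor Clec4e (-2.22), the nitric oxide synthase Nos2 (-1) and the cytokine Tnf (-0.838). Adgre1, Cd5l, Ms4a4a and Clec4e were higher in deficient arrays in air and lower under smoke. Groups of 3 arrays were not searched for single outlying arrays.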

How the results depend on the processing

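Of 327 named genes past the test, 291 kept their direction and call in all 15 other settings and 310 in all but treat. Many of them were chosen by size or p in these same data, so their stability is not that of all calls. Of all 11886 calls, 82.5% to 94.6% were kept when 1 smoke array was left out. On the 6 smoke arrays alone 85.3% were kept, and under treat 44.4%. The main counts kept within 1.5 times except here: treat against a difference of 0.25 called 5280 genes (2887 higher, 2393 lower), centring on the median called 11974 lower, and array weights raised the interaction count to 6662. Leaving out 1 array gave 9853 to 13472 calls, 4124 to 4729 higher and 5729 to 8743 lower, 6451 to 8579 in air, and 2239 to 4969 interactions, the highest without wild type smoke replicate 1. Named genes called then ranged from 317 to 325, and lists with a median above 0 from 35 to 38 (36 with all arrays). The replicate number as a replicate block gave 11919 calls, 4512 higher and 7407 lower, with 3020 interactions. The block took the call from Cd3e and Myh4 among named genes. Whether the replicate numbers mark a factor shared between the groups was not tested.

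Il6, never called, turned to -0.13 after centring on the median, and leaving out 1 array gave -0.030 (without wild type replicate 2) to 0.045 (without deficient replicate 3). Nfkbia, also not called, turned to -0.035 after centring. Centring, which took the median difference of all genes to -0.28, turned the medians of the checkpoint (-0.044), Wnt ligand (-0.078), p53 (-0.020), cholesterol (-0.066) and NRF2 (-0.12) lists. Among NF-kB subunits it moved the higher members from 5 to 2 and the lower ones from 4 to 13 (9 after quantile normalization). Falls grew likewise over all genes (7368 to 11974) and in other lists near the shift of all genes, such as respiratory chain (14 to 25) and mast cell genes (7 to 15). Quantile normalization left 87.3% of the calls in place. The cause of these changes was not tested. The number of arrays, 3 per group, limits what small differences can show.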
